A study of Mus musculus with 4 samples.

Results

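The genes described here code for the enzymes that handle glutathione and remove reactive oxygen species, measured by RNA-Seq in the mammary gland of virgin mice with and without *miR-21*. They were chosen by name with no threshold on their values, and comprise the glutathione transferases (*Gst* and *Mgst*), the glutathione peroxidases (*Gpx*), the peroxiredoxins (*Prdx*), the thioredoxins and their reductases (*Txn*, *Txnrd*), the superoxide dismutases (*Sod*), the enzymes of glutathione synthesis and reduction (*Gclc*, *Gclm*, *Gss*, *Gsr*), *Nqo1* and the heme oxygenases (*Hmox*). The deposited table held 53 such genes among 22479 distinct gene names, in 30506 loci of any kind. Each gene had 1 row, and 2 of the rows carried a second gene name as well.

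Glutathione is a small thiol made from glutamate, cysteine and glycine. Glutathione transferases attach it to electrophilic compounds, glutathione peroxidases use it to reduce peroxides, and glutathione reductase returns the oxidized form to the thiol at the expense of NADPH. Peroxiredoxins do similar work with electrons from thioredoxin, while superoxide dismutases convert superoxide to hydrogen peroxide. The virgin mammary gland is a fat pad crossed by epithelial ducts, with vessels, immune cells and stroma, and each of these cell types holds such enzymes.

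Mammary tissue came from 2 wild-type mice (*miR-21+/+*) and 2 mice that lack *miR-21* (*miR-21-/-*), on the mixed 129SV::FVB/N::C57BL/6 background according to the labels. The labels give their age as 2 months and name no treatment. The deletion is carried in the germline, so every cell type of the gland lacks the microRNA and not only the epithelium. For each gene the authors deposited a single FPKM value per genotype (sequenced fragments per length of exon, adjusted for how many fragments were mapped), computed over both of its mice. The spread between mice cannot be seen in such values, so no replicate check exists for any difference given here, no test was run and no error is attached. The depth of the libraries is unknown for the same reason. Since whole tissue was measured, fewer cells of a type and less RNA per cell cannot be told apart.

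The gene for *miR-21* lies in the 3′ UTR of *Vmp1*, and the row that carries both names read 42.5 FPKM in wild-type and 68.2 FPKM in *miR-21-/-* tissue. The mature microRNA is not captured by poly(A) selection, so the genotype labels are not checked by this row. FPKM values over all named loci summed to 380567 and 355385. Over every locus, unannotated ones included, they summed to 759295 and 1175603. The values were compared as deposited, and every log2 ratio below is the plain ratio of *miR-21-/-* to *miR-21+/+* FPKM. Scaling the columns to equal sums over all loci would shift each of these ratios by −0.63, and scaling to equal sums over named loci by 0.10. Directions are stated relative to the deposited scale.

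Of the 53 genes, 42 exceeded 5 FPKM, the minimum used in the study, and all 42 did so in both genotypes. Most differed little: in 29 of the 42 the higher value exceeded the lower by less than 25%. Among the 42, 4 were lower in *miR-21-/-* tissue by 1.5-fold or more (9.52%), compared with 4.33% of the 9714 named loci above the same minimum. These were *Gpx8*, *Mgst1*, *Gsta3* and *Gstt2*. In the other direction *Gclc* alone passed 1.5-fold, which is 2.38% of the 42 against 3.85% of named loci. At a limit of 25% on that measure 11 genes were lower (26.2%, against 11.3% of named loci) and 2 were higher (4.76%, against 8.48%). No gene of the 42 reached 2-fold in either direction, which 2.73% of named loci did.

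**Figure D1:**
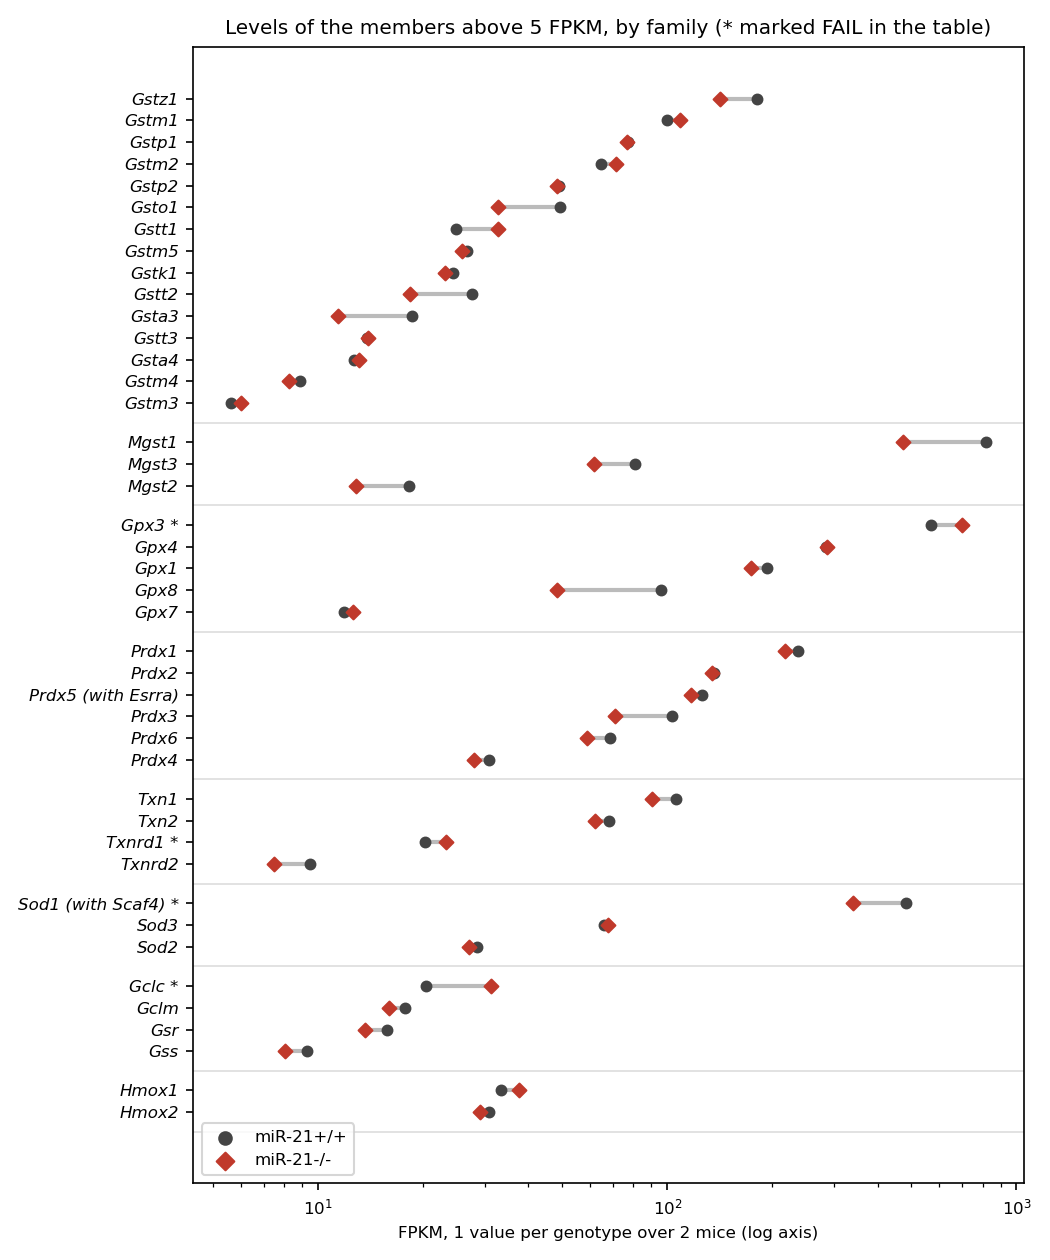
FPKM of the 42 genes above 5 FPKM on a log axis, grouped by family, with a circle for *miR-21+/+* and a diamond for *miR-21-/-* (1 value per genotype over 2 mice, no error bars). The widest gap belongs to *Gpx8*, at 95.7 and 48.2 FPKM, while most pairs lie close together.

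Together 29 of the 42 genes were lower and 13 higher. The share that was lower came to 69.0%, against 56.9% of the named loci above 5 FPKM, and the median log2 ratio was −0.11 against −0.03. The lean toward lower values depends on how the columns are scaled: with equal sums over named loci, 22 of the 42 genes were lower (52.4%) and 20 higher, while 34.3% of named loci were lower. Members of a family are not replicates, and none of these shares carries a test. All 53 genes made up 1.15% of the FPKM of named loci in *miR-21+/+* and 1.07% in *miR-21-/-* tissue.

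FPKM is a level per length of transcript, so genes can be ranked by it. The microsomal transferase *Mgst1* stood first in *miR-21+/+* tissue at 818 FPKM, followed by the secreted peroxidase *Gpx3* at 569 and the row that holds the cytosolic dismutase *Sod1* at 483. In *miR-21-/-* tissue *Gpx3* stood first at 699 FPKM and *Mgst1* second at 473. Without a spread between mice, neighbouring levels in this order cannot be told from each other.

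Of the 8 families, the transferases embedded in membranes had the lowest median ratio. MGST1 sits in the endoplasmic reticulum and the outer mitochondrial membrane and acts both as a transferase and as a peroxidase on lipid hydroperoxides. *Mgst1* (mm9, chr6:138089058-138105273, plus strand) read 818 FPKM in wild-type and 473 FPKM in *miR-21-/-* tissue, a 1.73-fold lower level with a log2 ratio of −0.79. Among the 546 named loci with a mean over 100 FPKM, 24 (4.40%) had a ratio as low. Its relatives were lower as well and stayed within 1.5-fold: *Mgst2*, which can make leukotriene C4, had 18.2 and 12.8 FPKM (log2 ratio −0.50), and *Mgst3* had 80.7 and 61.6 FPKM (−0.39). All 3 kept that direction with equal sums over named loci. Summed over the 3 genes the level was 917 FPKM in wild-type and 548 FPKM in *miR-21-/-* tissue. *Mgst1* supplied 89.2% and 86.4% of these sums, so the family total is mostly this gene.

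The promoter of *Mgst1* is shown because the antioxidant response element, the DNA motif bound by NRF2 with a small MAF protein, is the best known control of transferase genes. Its core was searched as TGACNNNGC on both strands in windows from 250 bases before to 50 bases after each start site in RefSeq (GRCm38.p6, a later build than the table's). *Mgst1* has 2 such windows, and 1 of them, chr6:138140277-138140576 on the plus strand, holds the core on its reverse strand, 56 bases before the start site. The window of *Gsta3*, chr1:21240335-21240634 on the plus strand, holds it on the forward strand 121 bases before the start site. Capitals mark the core.
Mgst1: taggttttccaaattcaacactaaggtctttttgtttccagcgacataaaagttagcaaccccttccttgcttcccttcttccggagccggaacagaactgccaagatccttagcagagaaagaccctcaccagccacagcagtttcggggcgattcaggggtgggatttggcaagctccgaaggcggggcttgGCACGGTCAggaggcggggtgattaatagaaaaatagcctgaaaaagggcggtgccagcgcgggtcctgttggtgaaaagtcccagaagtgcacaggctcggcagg
Gsta3: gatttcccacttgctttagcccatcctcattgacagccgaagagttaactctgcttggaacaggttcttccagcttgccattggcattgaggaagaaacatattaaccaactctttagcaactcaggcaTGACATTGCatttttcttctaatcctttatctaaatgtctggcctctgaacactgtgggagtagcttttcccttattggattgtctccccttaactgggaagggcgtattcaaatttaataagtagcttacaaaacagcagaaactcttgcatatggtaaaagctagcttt
Promoter windows were found for 46 of the 53 genes, 62 windows in all. The core occurred in 8 genes, namely *Gsta3*, *Gstm5*, *Gstm7*, *Mgst1*, *Prdx1*, *Txnrd1*, *Sod1* and *Gclm*, and in 12.9% of these 62 windows against 12.4% of 32851 windows of all genes. Counted by gene the shares were 17.4% and 13.99%. These 8 genes did not share a direction: *Mgst1* and *Gsta3* were lower by over 1.5-fold, *Gstm5*, *Prdx1*, *Gclm* and *Sod1* were lower by less, and *Txnrd1* was higher by less. *Gstm7* stayed under 5 FPKM. The *Gpx8* window did not contain these letters. A match is only a match of letters in this window.

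The soluble transferases (cytosolic, and the mitochondrial kappa class) are the largest family, with 21 genes of which 15 exceeded 5 FPKM. Their median log2 ratio was −0.02, with 9 lower and 6 higher. With equal sums over named loci the split turned to 5 lower and 10 higher, so no direction is given for the family. Summed levels were 689 and 639 FPKM. Within it the classes differed from each other.

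In the alpha class *Gsta3* (chr1:21230670-21255640, plus strand), which in the mouse conjugates aflatoxin epoxide, had 18.5 FPKM in wild-type and 11.4 FPKM in *miR-21-/-* tissue, 1.63-fold lower (log2 ratio −0.70). Of 5900 named loci with a mean of 5 to 20 FPKM, 135 (2.29%) had a ratio as low. Its relative *Gsta4*, specialised in the lipid peroxidation product hydroxynonenal, read 12.7 and 13.1 FPKM (0.04). *Gsta1* and *Gsta2* did not exceed 0.416 FPKM in either genotype.

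The theta class shows a contrast within 1 cluster on chromosome 10. *Gstt2* (chr10:75293596-75300186) had 27.7 and 18.3 FPKM, 1.51-fold lower with a log2 ratio of −0.59, and 113 of the 2955 named loci with a mean of 20 to 100 FPKM (3.82%) had a ratio as low. The neighbour *Gstt1* (chr10:75246558-75261329) went the other way, from 24.8 to 32.7 FPKM (0.40). *Gstt3* (chr10:75236867-75244159) was level at 13.8 and 13.9 FPKM (0.02). All 3 lie on the minus strand, and their sum together with the scarce *Gstt4* was 66.5 and 65.1 FPKM, so the class sums were close while its members were not. *Gstt2* lies so near the limit that it falls short of 1.5-fold with a pseudocount of 1 (−0.57) or with equal sums over named loci (−0.50). The *Gstt2* row covers 6591 bases where the annotated gene covers 3037.

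The omega and zeta classes were lower by less than 1.5-fold. *Gsto1*, which reduces dehydroascorbate and glutathionylated thiols, had 49.2 and 32.8 FPKM, and its log2 ratio of −0.58 lies just short of the limit. *Gstz1*, an isomerase of tyrosine breakdown and the most abundant soluble transferase, had 181 and 142 FPKM (−0.35). *Gstk1* of the kappa class read 24.3 and 23.2 FPKM (−0.07).

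The mu class forms a cluster on chromosome 3, where 5 of 7 genes exceeded 5 FPKM. Levels were close in all 5, with log2 ratios from −0.11 to 0.14. *Gstm1* read 99.6 and 109 FPKM and *Gstm2* read 64.5 and 71.1 FPKM, and the class sum was 209 and 224 FPKM. The pi class was level too, with *Gstp1* at 77.2 and 76.9 FPKM (−0.01) and *Gstp2* at 48.8 and 48.3 FPKM (−0.02). These pi values are uncertain as separate genes: the coding sequences are 98.1% identical, and 68.3% of the 50-base words of *Gstp1* also occur in transcripts of other genes. Reads of that kind could be split between the pair. *Gsta1* and *Gsta2* have the same limit at 97.9% identity, and *Gstm1* and *Gstm3* share less, at 89.5%. For *Gpx8*, *Mgst1*, *Gsta3*, *Gstt2* and *Gclc* no 50-base word was shared with an annotated coding transcript of another gene. Only annotated coding transcripts were searched.

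**Figure D2:**
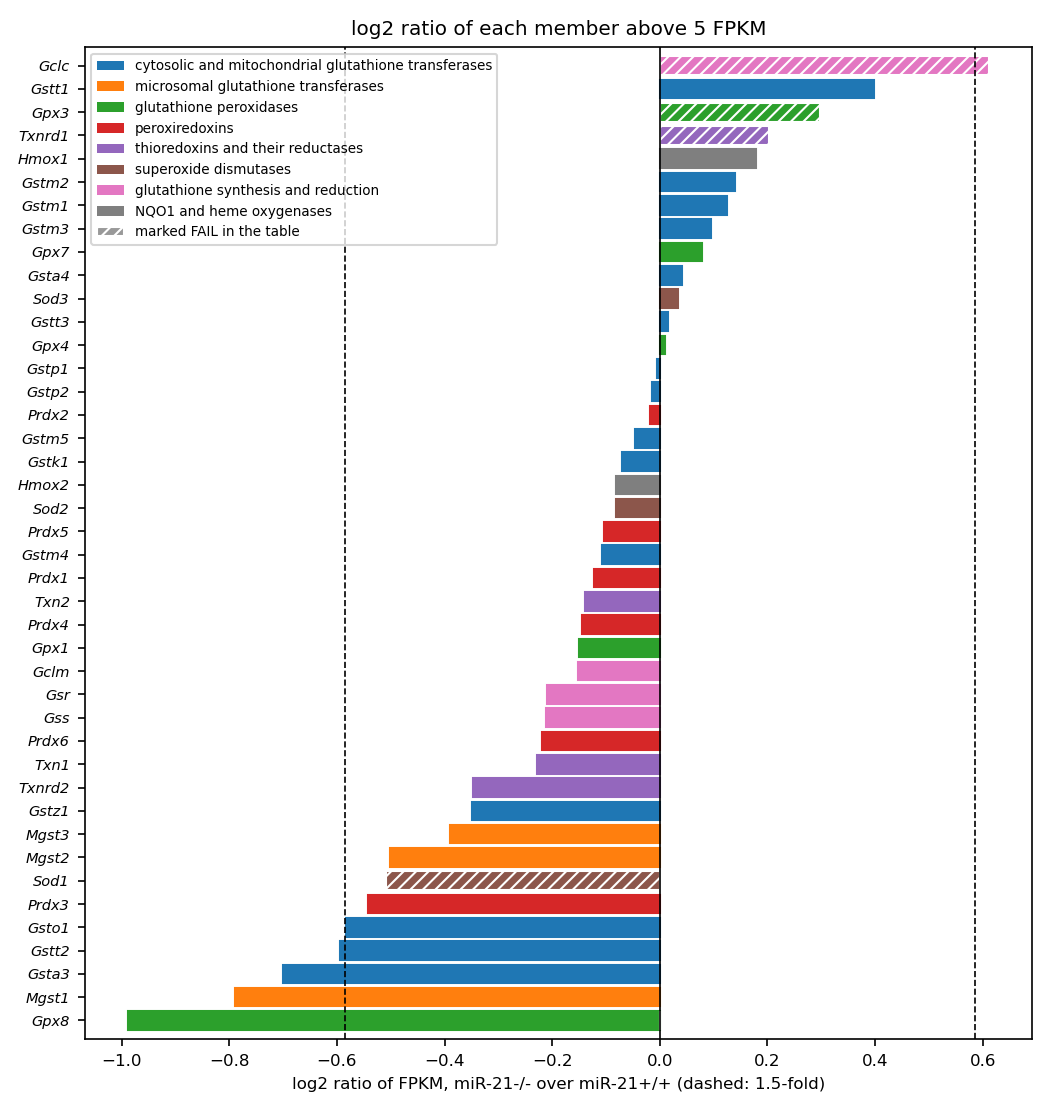
Log2 ratio of FPKM (*miR-21-/-* over *miR-21+/+*) for the 42 genes above 5 FPKM, sorted, as bars from 0 coloured by family. Dashed lines mark 1.5-fold, which 4 genes pass on the lower side and *Gclc* on the higher side, and hatched bars are the 4 rows that the deposited table marks as FAIL.

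The glutathione peroxidases fall into enzymes with selenocysteine at the active site, which is coded by TGA, and enzymes with cysteine. The codon decides which genes depend on selenium, and it was read here from the coding sequences (GENCODE vM1, DNA, capitals marking the active-site codon).
Gpx1: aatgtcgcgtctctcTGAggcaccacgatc
Gpx3: aacgtagccagctacTGAggtctgacagac
Gpx4: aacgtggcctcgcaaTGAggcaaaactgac
Gpx7: aacgtagctagcgaaTGTggcttcacagac
Gpx8: aacgtggctagtgacTGCcgcttcacagac
Of the 8 peroxidase genes 4 carry TGA (the 3 above and *Gpx2*), and 4 carry a cysteine codon (*Gpx5*, *Gpx6*, *Gpx7* and *Gpx8*). *Gpx8* (chr13:113832971-113836596, minus strand) codes for a peroxidase anchored in the membrane of the endoplasmic reticulum. It had 95.7 FPKM in wild-type and 48.2 FPKM in *miR-21-/-* tissue, 1.98-fold lower with a log2 ratio of −0.99, which was the lowest ratio among the 42 genes. In its level class of 2955 loci, 28 (0.948%) had a ratio as low. The gene lies within an intron of *Cdc20b* on the opposite strand, and the library kit does not mark strand.

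The cysteine peroxidase nearest to it, *Gpx7*, also of the endoplasmic reticulum, was scarcer and level at 11.9 and 12.5 FPKM (log2 ratio 0.08). The selenium peroxidases differed by less than 25%. *Gpx4*, which reduces lipid hydroperoxides in membranes, read 284 and 286 FPKM (0.01), and *Gpx1*, the cytosolic form, read 193 and 174 FPKM (−0.15). *Gpx3*, the plasma form, read 569 and 699 FPKM (0.30) in a row marked FAIL, a mark that also falls on 10.4% of named loci above 5 FPKM. *Gpx2*, the form of the gut, was at 0.536 and 0.558 FPKM, and *Gpx5* and *Gpx6* were at 0.00629 and 0.0194 FPKM in wild-type and listed at 0 in *miR-21-/-* tissue. Summed over the family, levels were 1153 and 1220 FPKM.

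All 6 peroxiredoxins exceeded 5 FPKM and all 6 were lower in *miR-21-/-* tissue, with a median log2 ratio of −0.13 and no gene past 1.5-fold. With equal sums over named loci 5 were lower and *Prdx2* was higher. *Prdx3*, the mitochondrial form, stood apart at 103 and 70.7 FPKM (−0.54). The cytosolic *Prdx1* read 236 and 217 FPKM (−0.12) and *Prdx2*, abundant in red cells, read 136 and 134 FPKM (−0.02). *Prdx6*, which takes its electrons from glutathione, read 68.5 and 58.9 FPKM (−0.22). *Prdx4* of the endoplasmic reticulum read 30.9 and 28.0 FPKM (−0.15). *Prdx5* shares its row with *Esrra*, and that row read 126 and 117 FPKM (−0.10).

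Thioredoxin supplies electrons to the peroxiredoxins, and its reductases are themselves selenium enzymes. In all 3 reductase genes TGA stood directly before the last sense codon, as shown for the 2 genes above 5 FPKM.
Txnrd1: ctccagtctggctgcTGAggttaa
Txnrd2: actgtgactggttgcTGAggctaa
The cytosolic *Txn1* read 106 and 90.2 FPKM (log2 ratio −0.23) and the mitochondrial *Txn2* read 68.2 and 61.9 FPKM (−0.14). *Txnrd2* in mitochondria read 9.49 and 7.46 FPKM (−0.35), while *Txnrd1* in the cytosol read 20.2 and 23.3 FPKM (0.20) in a row marked FAIL. No gene of this family passed 1.5-fold. *Txnrd3*, a form of the testis, was under 5 FPKM at 4.16 and 3.93.

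Among the superoxide dismutases the row of *Sod1* differed most, at 483 and 340 FPKM (log2 ratio −0.51). This row carries the name of the neighbour *Scaf4* as well and is marked FAIL. A row for *Scaf4* alone had a far lower level and a log2 ratio of −0.01. The mitochondrial *Sod2* read 28.6 and 27.0 FPKM (−0.08), and *Sod3*, which is secreted and binds the extracellular matrix, read 65.9 and 67.4 FPKM (0.03).

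The enzymes that make and restore glutathione were less abundant. *Gclc* (chr9:77602342-77659217, plus strand), the catalytic subunit of glutamate-cysteine ligase and the first step of synthesis, had 20.4 FPKM in wild-type and 31.2 FPKM in *miR-21-/-* tissue, 1.53-fold higher with a log2 ratio of 0.61. In its level class 85 of 2955 loci (2.88%) had a ratio as high. The row is marked FAIL and covers 56876 bases where the annotated gene covers 39951, and without rows so marked no gene was higher by 1.5-fold. Its partner *Gclm*, the modifier subunit, went the other way by less than 25%, at 17.7 and 15.9 FPKM (−0.15). *Gss*, which adds glycine, read 9.27 and 8.01 FPKM (−0.21), and the reductase *Gsr* read 15.8 and 13.6 FPKM (−0.21).

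The inducible heme oxygenase *Hmox1*, which opens the heme ring and serves as a common readout of NRF2, read 33.3 and 37.7 FPKM (log2 ratio 0.18). The constitutive *Hmox2* read 30.8 and 29.1 FPKM (−0.08). *Nqo1*, a quinone reductase and the other common readout, stayed under 5 FPKM at 4.69 and 4.02. None of these 3 genes passed 1.5-fold.

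The 11 genes that did not exceed 5 FPKM were *Gstm6*, *Gstm7*, *Gsto2*, *Gsta1*, *Gsta2*, *Gstt4*, *Gpx2*, *Gpx5*, *Gpx6*, *Txnrd3* and *Nqo1*. They were left out of the counts above, and their ratios rest on low values. The highest of them was *Nqo1*, and the lowest were *Gpx5* and *Gpx6*. None exceeded the minimum in a single genotype only, so the filter removed no gene on account of its difference.

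**Figure D3:**
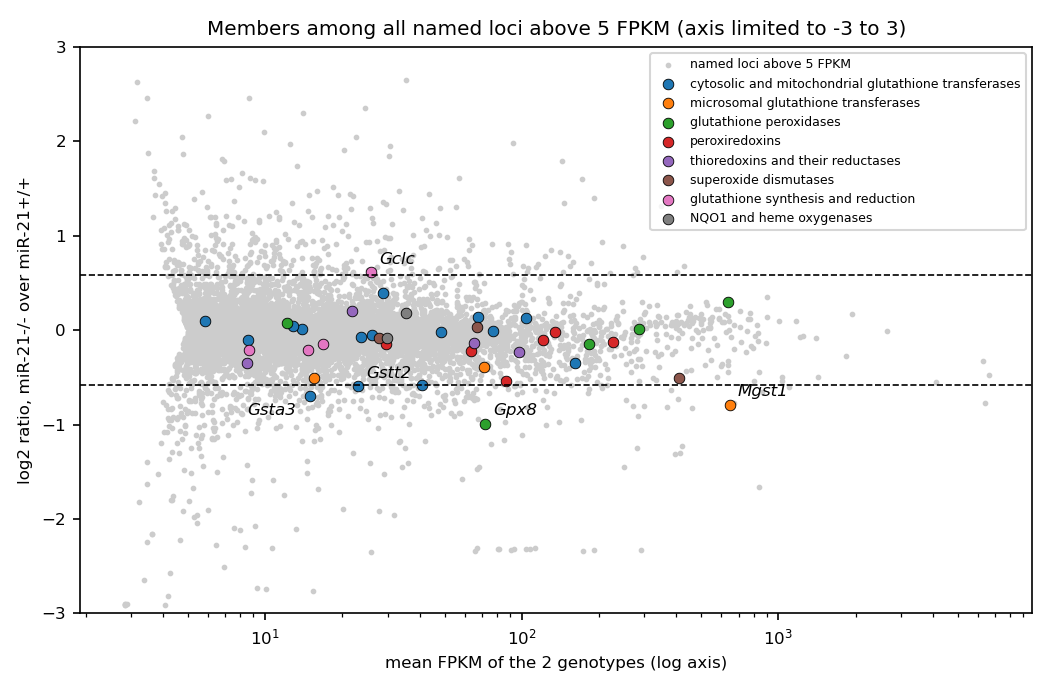
Mean FPKM of the 2 genotypes (log axis) against the log2 ratio for named loci above 5 FPKM (grey) with the 42 genes coloured by family. Dashed lines mark 1.5-fold, 12 loci lie outside the drawn range of −3 to 3, and *Mgst1* and *Gpx8* lie toward the lower edge of the cloud at their levels.

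The genes were also sorted by the main compartment of the protein, from general knowledge. For reference, 56.9% of named loci were lower as deposited and 34.3% with equal sums over named loci, and no test was made between compartments. Of 6 genes for enzymes of the endoplasmic reticulum and its membrane (*Mgst1*, *Mgst2*, *Mgst3*, *Gpx7*, *Gpx8* and *Prdx4*) 5 were lower, 2 of them past 1.5-fold, with a median log2 ratio of −0.45 and summed levels of 1055 and 637 FPKM. *Mgst1*, whose protein is also found in mitochondria, gave most of these sums, and without it they were 237 and 163 FPKM. The 5 lower genes stayed lower with equal sums over named loci, where the median was −0.35. The heme oxygenases, which are also anchored in this membrane, were not counted in the group. *Hmox1* was higher (log2 ratio 0.18), and *Hmox2* read −0.08 as deposited and 0.02 with equal sums over named loci. The 5 mitochondrial genes (*Prdx3*, *Txn2*, *Txnrd2*, *Sod2* and *Gstk1*) were all lower, with a median of −0.14, none past 1.5-fold, and 3 of the 5 remained lower with equal sums over named loci. Of the 2 secreted enzymes, *Gpx3*, in a row marked FAIL, was higher (log2 ratio 0.30) and *Sod3* was level (0.03). Their summed levels were 634 and 766 FPKM, of which *Gpx3* gave the larger part.

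Whether any of these genes carries a site for the deleted microRNA in an annotated 3′ UTR can be read from its sequence. Mature miR-21 from RefSeq is shown with its seed, bases 2 to 8, in capitals, and below it the 1 site of 7 bases that pairs with the whole seed among the 53 genes, in *Sod3* (mm9, chr5:52762573-52762579, plus strand, 3′ UTR), as DNA with the pairing bases in capitals.
mmu-miR-21a-5p: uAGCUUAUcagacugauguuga
Sod3: atgttaggATAAGCTgtttctca
When each gene was represented by its longest 3′ UTR, *Sod3* alone held such a site. The measured row of *Sod3*, chr5:52755043-52760977, read 65.9 and 67.4 FPKM and ends before the site. Its level therefore does not show whether the measured transcripts carry the site. This 1 gene is 2.38% of the 42 genes above 5 FPKM, against 665 (6.83%) of 9738 genes over the same minimum whose 3′ UTR is annotated. Shorter 6-base matches brought the number to 7 genes, adding *Gclm*, *Gstt4*, *Prdx1*, *Prdx6*, *Txnrd1* and *Gpx5*. In *Gpx5* the 6 bases are followed by an A, which makes a 7-base site of another kind that does not pair with the whole seed. Of the 42 genes above 5 FPKM, 5 (11.9%) held a match of 6 bases or more, against 24.3% of the 9738 genes. *Gclc*, the 1 gene higher by 1.5-fold, held no match of 6 bases or more in its longest annotated 3′ UTR. Its measured row runs past the annotated 3′ end of the gene, and that stretch was not searched.

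The other genes of the pathway were taken from 8 lists written from general knowledge. They named 109 genes, of which 105 were in the table and 76 exceeded 5 FPKM. In these lists 1 gene was higher and 3 were lower by 1.5-fold or more, with 24 higher and 52 lower in direction and a median log2 ratio of −0.08. The shares past 1.5-fold were 1.32% and 3.95%, against 3.85% and 4.33% of named loci, and 68.4% were lower in direction against 56.9% of named loci. With equal sums over named loci the median turned to 0.015, with 3 genes higher and 2 lower past 1.5-fold.

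Catalase, which breaks down hydrogen peroxide in peroxisomes, had the lowest log2 ratio of the 76 genes. *Cat* had 369 FPKM in wild-type and 197 FPKM in *miR-21-/-* tissue (log2 ratio −0.91), and 5 of the 6 genes above 5 FPKM in its list of peroxide enzymes were lower. *Park7*, the next most abundant of them, read 68.5 and 73.7 FPKM. In the list for NRF2 and NADPH supply, 19 of 21 genes exceeded the minimum, and *Cbr1*, a carbonyl reductase, had 74.4 and 40.5 FPKM (−0.88) as the 1 gene past 1.5-fold. The factor itself and its inhibitor were close in both genotypes, with *Nfe2l2* (NRF2) at 42.0 and 46.7 FPKM and *Keap1* at 17.0 and 16.1 FPKM. The most abundant genes of that list were *Tkt* at 294 and 271 FPKM and *Me1* at 285 and 223 FPKM.

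Among 8 genes above 5 FPKM of glutathione breakdown, salvage and cystine supply, *Ggt5*, a gamma-glutamyl hydrolase of the cell surface, was higher at 8.34 and 16.3 FPKM (log2 ratio 0.96). The most abundant there were *Slc3a2* at 51.6 and 53.9 FPKM and *Dpep1* at 45.9 and 55.1 FPKM. In the list of selenoproteins and selenium supply *Sephs2*, which makes the selenium donor, had 42.9 and 28.3 FPKM (−0.60) and the selenium carrier *Sepp1* had 677 and 480 FPKM (−0.50). *Sephs2* alone among the 10 passed 1.5-fold, and it fell short with equal sums over named loci. *Sepw1*, the other most abundant gene of this list, read 159 and 164 FPKM. None of the 16 glutaredoxin and thiol repair genes passed 1.5-fold, where the thioredoxin inhibitor *Txnip* read 661 and 686 FPKM and *Txndc5*, a protein disulfide isomerase, 97.2 and 76.9 FPKM. The 7 genes of heme and metal handling were all lower within 1.5-fold, and 4 of the 7 stayed lower with equal sums over named loci. The ferritin chains led this list, with *Fth1* at 1240 and 1180 FPKM and *Ftl1* at 868 and 800 FPKM. Neither the 6 superoxide sources, led by *Xdh* (49.2 and 51.0 FPKM) and *Cyba* (41.9 and 40.2 FPKM), nor the 4 eicosanoid enzymes related to transferases, led by *Alox5ap* (34.2 and 41.2 FPKM) and *Ltc4s* (33.3 and 32.7 FPKM), held a gene past 1.5-fold.

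**Figure D4:**
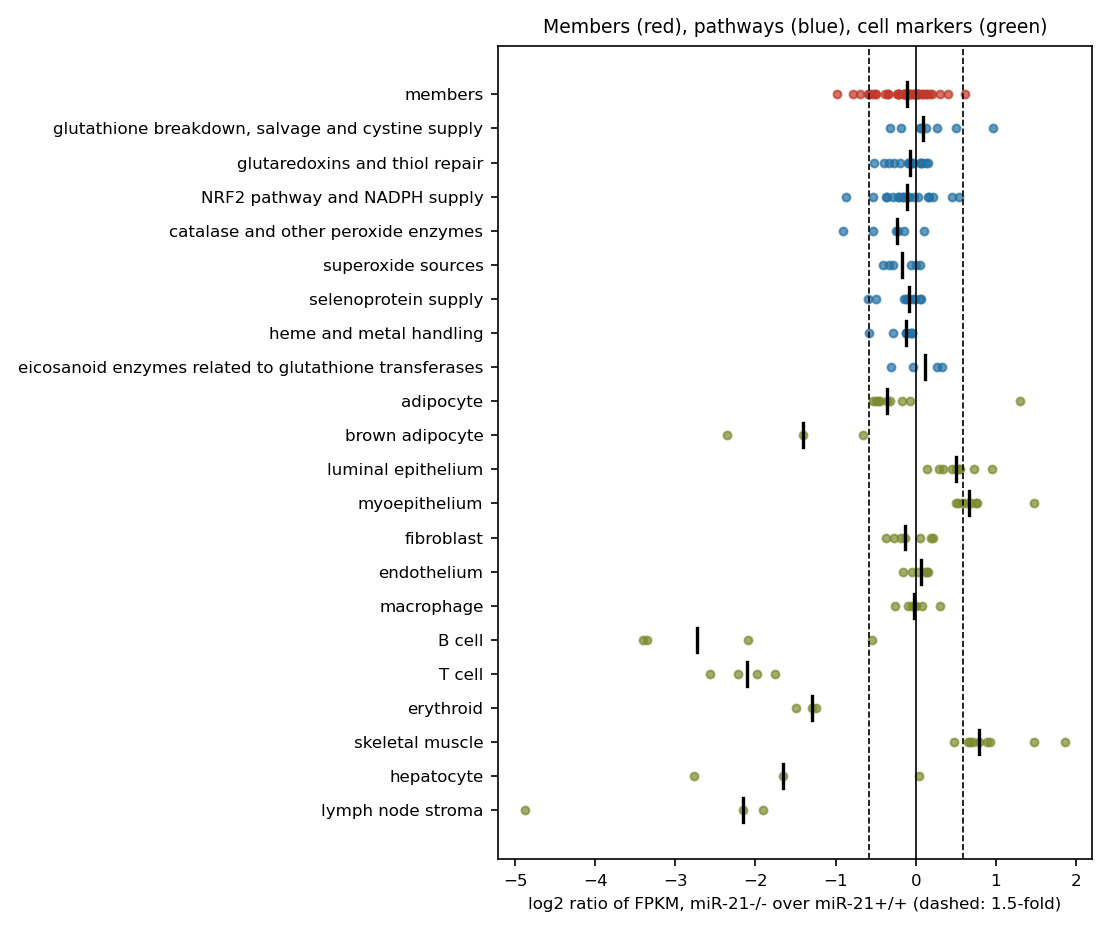
Log2 ratio of FPKM (*miR-21-/-* over *miR-21+/+*) for each gene above 5 FPKM, as points, for the 42 genes (red), 8 pathway lists (blue) and the cell type marker lists with genes above 5 FPKM (green). Black ticks are medians and dashed lines 1.5-fold, and the red and blue points lie between −0.99 and 0.96, while the medians of the brown adipocyte, B cell, T cell, erythroid, hepatocyte and lymph node stroma markers lie at −1.30 or lower.

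RNA of cell type markers also differed between the genotypes, and is given here for its bearing on the values above. The lists are described over their markers above 5 FPKM, sums included. Mammary tissue was recognisable in both genotypes by its adipocyte and epithelial markers. Of 9 adipocyte markers 8 were lower in *miR-21-/-* tissue, with a median log2 ratio of −0.36, a range of −0.54 to 1.29 and summed levels of 19002 and 14432 FPKM, led by *Fabp4* and *Cfd*, and 7 were lower with equal sums over named loci. All 9 luminal markers, led by *Krt19* and *Krt18*, were higher (median 0.50, range 0.15 to 0.95, sums 680 and 926 FPKM). All 8 myoepithelial markers, led by *Acta2* and *Krt5*, were higher as well (median 0.66, range 0.50 to 1.47, sums 355 and 570 FPKM). The same held for all 9 skeletal muscle markers, led by *Acta1* and *Ckm* (median 0.78, range 0.48 to 1.86, sums 1283 and 2136 FPKM). The 3 brown adipocyte markers above 5 FPKM were lower, with *Cox8b* and *Cidea* the most abundant (median −1.41, range −2.35 to −0.66, sums 218 and 106 FPKM).

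Markers of blood and lymph node differed by more. The 4 B cell markers above 5 FPKM were lower (median −2.72, range −3.40 to −0.54, sums 95.5 and 52.5 FPKM). Most of that sum was the row of *Cd79a*, which also carries the name *Arhgef1* and read 70.3 and 48.3 FPKM, followed by *Cd79b*. The 4 T cell markers, led by *Lck* and *Cd3g*, were lower (median −2.10, range −2.57 to −1.76, sums 30.1 and 7.0 FPKM). So were 3 lymph node stroma markers, led by *Glycam1* and *Cxcl13* (median −2.16, range −4.88 to −1.90, sums 151 and 8.49 FPKM). *Madcam1*, the other marker of that list, stayed under 5 FPKM and went the other way, at 0.576 and 1.56 FPKM. The 3 erythroid loci, led by the alpha and beta globin rows, were lower (median −1.30, range −1.50 to −1.25, sums 993 and 409 FPKM). Of 3 hepatocyte list genes above 5 FPKM, *Cyp2e1* and *Fgb* were lower and the defining marker *Alb* read 16.6 and 17.0 FPKM (median −1.66, range −2.77 to 0.04).

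The fibroblast markers, led by *Col3a1* and *Col1a2*, had a median of −0.13 (range −0.38 to 0.21), and the endothelial markers, led by *Cdh5* and *Pecam1*, 0.07 (−0.16 to 0.15). The macrophage markers, led by *Cd68* and *C1qa*, had a median of −0.02 (−0.26 to 0.30), where the row of *Cd68* also carries the names *Eif4a1* and *Senp3*. None of these passed 1.5-fold, and no neutrophil marker exceeded 5 FPKM. *Mgst1*, *Gpx8*, *Gsta3* and *Gstt2* were picked for being lower by 1.5-fold, a limit that no adipocyte marker passed on the lower side. That their ratios lay below those of all 9 adipocyte markers therefore follows from the choice. The ratios of these 4 genes lay above the medians of the brown adipocyte, erythroid, B cell, T cell, lymph node stroma and hepatocyte lists. Single markers of these lists above 5 FPKM also lay below all 4 genes, except *Cox8b* (−0.66), the *Cd79a* row (−0.54) and *Alb* (0.04). The part of cell makeup in the values of the glutathione and antioxidant genes was not tested.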

How the data were processed

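Mammary RNA of 4 mice, 2 per genotype, was converted to poly(A) libraries and sequenced as single-end reads on a HiSeq 2000. Alignment by the authors used TopHat and the mm9 assembly, and Cufflinks gave the transcript levels. CASAVA is also named in the submitters' processing notes. Program versions, gene annotation and normalization options are not given in the sources used here. The authors deposited 1 FPKM value per gene and genotype over both mice, with a status mark (OK, FAIL, NOTEST), which was kept as a quality mark. The table also holds the authors' own fold change, test statistic, p-value, q-value and call, which were not used. Every column of FPKM values was used. FPKM values alone do not give the number of reads, so the depth and its precision are unknown.

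Groups follow the sample titles. The log2 ratio was taken without a pseudocount, on named loci above 5 FPKM in at least 1 genotype, and counted past 1.5-fold. The test planned for a column per mouse was not run, since the table has none. The genes and lists were chosen with earlier results of these data known. Named genes are all genes that meet the name rule, and of each pathway list those past 1.5-fold and the 2 most abundant, and of each cell type list the 2 most abundant with the range. *Nfe2l2*, *Keap1*, *Fgb* and *Madcam1* were named after their values were seen. Each list was counted over its genes above 5 FPKM. Coordinates count from 1 in mm9. Coding sequences and 3′ UTRs came from GENCODE vM1, and promoters and the microRNA from RefSeq (GRCm38.p6). No promoter entry was found for *Gclc*, *Gsr*, *Gsta4*, *Gstt2*, *Hmox1*, *Prdx6* and *Sod3*. The scripts were tested on simulated data. Python 3.11.15 with numpy 2.4.6, pandas 2.3.3, biopython 1.88 and matplotlib 3.10.9 was used.

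The settings tried instead were pseudocounts of 1 and 0.1, FPKM minimums and fold limits other than those above, merged rows left out, and scaling to equal sums or medians over named loci. Scaling to equal sums over all loci and leaving out rows marked FAIL were chosen after seeing the data.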

Additional observations from a re-analysis of the deposited data

How the results depend on the processing

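No paired analysis was possible because each genotype has a single value and no mouse a value of its own. Leaving out 1 mouse was not run for the same reason, and using another row of the same gene was not run because each gene had 1 row.

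As deposited, 1 gene was higher and 4 were lower by 1.5-fold. Without a minimum these counts were 3 and 7, at a limit of 25% 2 and 11, and at 2-fold 0 and 0. Without rows marked FAIL 0 were higher. With equal sums over all loci, which shifts each ratio by −0.63, 0 were higher and 33 lower, the median of the genes above 1 FPKM in mean moved from −0.10 to −0.73, the log2 ratio of *Gclc* turned to −0.019, and in the pathway lists 0 genes were higher and 54 lower with a median of −0.71. With equal sums over named loci 3 genes of the pathway lists were higher and their median was 0.015. A pseudocount of 1 moved the 42 log2 ratios by at most 0.0455. A pseudocount of 0.1 moved them by at most 0.0048. Scaling moves all ratios by the same amount, 0.0988 for equal sums over named loci and 0.0056 for equal medians. With equal sums over named loci 22 of the 42 genes were lower and 20 higher, against 29 and 13 as deposited. There *Gstt2* fell short of 1.5-fold, which left 3 genes lower past that limit.

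With 1 value per genotype and unknown depth, no difference here can be set against the variation between mice, and the counts describe these 4 mice. The p-values of the table were not used.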
